A study of Homo sapiens with 12 samples.

Results

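The HOXA genes with their antisense transcripts, and MEIS1 and PBX3, were followed in SHI-1 cells exposed to disulfiram with copper, to niclosamide, or to both drugs. Members were the rows whose symbol begins with HOXA and whose mean normalized count over the 12 libraries was at least 5, with MEIS1 and PBX3 added by name. The 13 HOXA rows reported had such a mean, which gave 15 members among 14866 listed genes. They comprised 9 coding HOXA genes, the antisense transcripts HOXA-AS3, HOXA10-AS and HOXA11-AS, the read-through transcript HOXA10-HOXA9, and both cofactor genes.

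The SHI-1 line was derived from acute myeloid leukemia and carries the MLL-AF6 fusion, which every group therefore shares. Cells received DMSO alone, 0.3 µM disulfiram with 1 µM copper (DSF), 5 µM niclosamide (NSM), or all of these together (DSF+NSM), and RNA was taken after 16 h from 3 independent experiments per group. Disulfiram is a drug against alcohol dependence that binds copper, and niclosamide is a drug against tapeworms. Whether copper was also given to the DMSO and NSM groups is not stated in the sources used here. The comparisons ask how far genes downstream of the MLL fusion protein move with each drug and with the combination.

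HOX genes encode homeodomain transcription factors that lie in clusters, and their order in a cluster follows the order in which they act along the body axis. MLL, a histone methyltransferase whose CXXC domain binds unmethylated CpG sites, keeps HOXA genes active in early blood cells, and MLL fusion proteins keep them active in leukemia. MEIS1 and PBX3 belong to the TALE class of homeodomain proteins, bind DNA together with HOX proteins, and are high in many leukemias with an MLL rearrangement.

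The files held normalized counts, that is, read counts scaled between libraries, though not always whole reads divided by 1 factor. Library sums differed between the groups: those of DMSO lay between 14.0 and 14.4 M, those of DSF between 14.9 and 15.3 M, those of NSM between 16.5 and 17.5 M, and those of the combination between 22.7 and 25.6 M normalized counts. In addition, the smallest step between values gave an estimated 10.2 to 19.0 M reads per library. NSM replicate 3 stood apart. Its Spearman correlation with the other NSM libraries was 0.939 and 0.950, against 0.980 to 0.996 for every other pair within a group. The main differences that rest on NSM are therefore also given without NSM replicate 3. The values of 0.980 were those of DSF+NSM replicate 3, which also had the fewest estimated reads, 10.2 M. Differences with both drugs are given with that library included unless stated. All 12 myeloid markers checked, among them MPO and CD33, had a mean of at least 50 normalized counts over the libraries. Their summed level was 69849 to 78999.5 in DMSO, 49282 to 55258 in DSF, 35006 to 43311 in NSM and 36976 to 38610.1 in the combination. MPO held most of the DMSO sum. Its mean there was 58058, but 16981 under NSM and 21249 under both drugs. Most markers did not share this fall: under NSM 4 of the 12 fell and 6 rose, against 23.7% of all genes lower and 25.4% higher. With both drugs 2 fell, MPO (-1.45) and LYZ (-0.73) on the log2 scale. The 3 that rose included CD14 (2.46) and CD68 (1.12). Of all genes 24.5% were lower and 28.3% higher with both drugs. With equal library sums 9 of these markers fell and 1 rose, against 56.3% of all genes lower and 11.3% higher. Of 12 markers of other blood lineages, 7 were listed, and their summed level was 192 to 208 in DMSO, 236 to 249.9 in DSF, 219 to 403 in NSM and 250.3 to 970 in DSF+NSM libraries. CD3E was among them, at 71.9 in DMSO and 164 with both drugs. The part of either set of markers in the results was not tested.

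In DMSO the level per kilobase of transcript (mean normalized count divided by the length of the canonical GENCODE transcript) was highest for PBX3 at 619, followed by HOXA10 at 393, HOXA9 at 307, MEIS1 at 257 and HOXA11 at 202. HOXA7 stood at 116, HOXA5 at 89.0, HOXA11-AS at 78.4, HOXA13 at 64.0 and HOXA6 at 51.3 per kilobase. HOXA10-AS at 36.5, HOXA3 at 24.1, HOXA4 at 14.7 and HOXA-AS3 at 12.9 were the lowest. The 5′ HOXA genes from HOXA9 to HOXA11 were thus the most abundant of the cluster, and HOXA3 and HOXA4 near its other end the least abundant of the coding members.

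The sum over the coding genes of the cluster was lower with DSF, higher with NSM and lowest with both drugs. The summed normalized count of the 9 coding HOXA genes was 2949 to 3156 in DMSO, 2425 to 2599.5 in DSF, 4293 to 7158 in NSM and 1278 to 1613 in DSF+NSM libraries, with no overlap between any of the groups. The order was the same per M normalized counts of the library, which does not depend on the scaling between libraries: 207 to 219 in DMSO, 163 to 169.8 in DSF, 256 to 413 in NSM and 50.8 to 71.2 in DSF+NSM. HOXA9 made up 20.6% to 21.3% of that sum in DMSO, 23.9% to 28.4% in DSF, 37.3% to 56.4% in NSM and 32.8% to 40.2% in DSF+NSM. HOXA10, HOXA11 and HOXA13 together made up 60.9% to 61.8% in DMSO, 56.2% to 58.6% in DSF, 33.2% to 46.9% in NSM and 38.6% to 43.6% in DSF+NSM. The rise of the sum with NSM lay mostly in HOXA9 and was not a rise of the whole cluster. The mean sum was 3024 in DMSO and 5310 in NSM, and the HOXA9 mean was 634 and 2465. Of the coding genes, only HOXA3, HOXA4 and HOXA9 were called higher with NSM in the tests below. In a bulk sample fewer cells with a transcript and less of it per cell cannot be told apart.

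**Figure D1:**
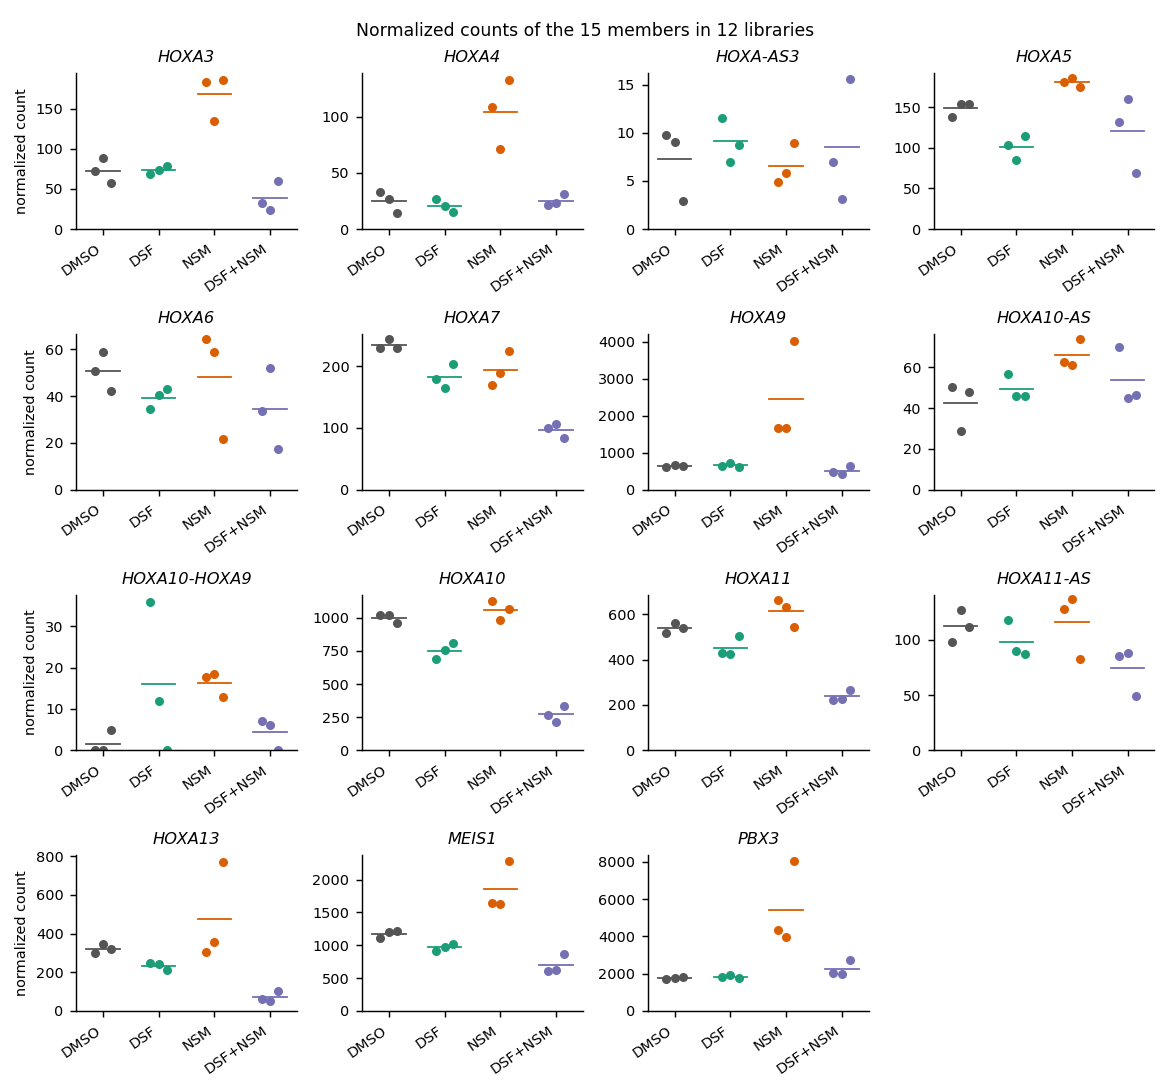
Normalized counts of the 15 members (y axes, from 0) in the 12 libraries, by group (x axes). Points are libraries and lines are group means. In HOXA9, HOXA13 and PBX3, NSM replicate 3 is the highest library of all, and in HOXA7, HOXA10, HOXA11 and HOXA13 the 3 DSF+NSM libraries lie under every other library.

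Members were compared with limma on log2(normalized count + 1) over 13502 genes. A member was called when its Benjamini-Hochberg adjusted p over all these genes was under 0.05. Of the 15 members, 14 passed the filter of at least 10 normalized counts in at least 3 libraries. HOXA-AS3 did not, since only 2 libraries reached 10.

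With DSF alone no member was called, against 17.8% of all genes tested, 5.95% lower and 11.9% higher. At an unadjusted p under 0.05 there were 2, HOXA7 and HOXA10. The median log2 difference of the members was -0.23, beside 0.05 over all genes. All 3 DSF libraries lay under the lowest DMSO library for HOXA5, HOXA7, HOXA10, HOXA11, HOXA13 and MEIS1, and these 6 were called lower when only the DSF and DMSO libraries were fitted, a fit in which 56.0% of all genes were called and 25.9% were lower. HOXA10 stood at 75.1% of its DMSO mean with DSF, with a log2 difference of -0.41 ± 0.16 (SE, n = 3 per group; limma adjusted p = 0.0893 with all groups and 0.00023 with the 2 groups alone). The call for DSF therefore depends on whether the spread is estimated with or without the NSM and DSF+NSM libraries.

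With NSM alone the members parted. HOXA9, HOXA3, HOXA4, the read-through row, MEIS1 and PBX3 rose and none fell, which is 6 higher of 14 tested, against 25.4% of all genes called higher and 23.7% called lower, or 49.1% in either direction. The median of the members was 0.54, beside 0.01 over all genes. The remaining 8, among them HOXA5, HOXA7, HOXA10, HOXA11 and HOXA13, were not called, although HOXA7 was called lower with equal library sums, with library weights and without NSM replicate 3.

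With both drugs 6 of 14 members fell and none rose, against 52.8% of all genes called in either direction, 24.5% lower and 28.3% higher. They were HOXA13, HOXA10, HOXA7, HOXA11, HOXA3 and MEIS1. The median of the members was -0.65, beside 0.03 over all genes. When every library was instead scaled to the same sum, the median of all genes moved to -0.75 and that of the members to -1.40, and 10 members were called lower, against 56.3% of all genes.

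**Figure D2:**
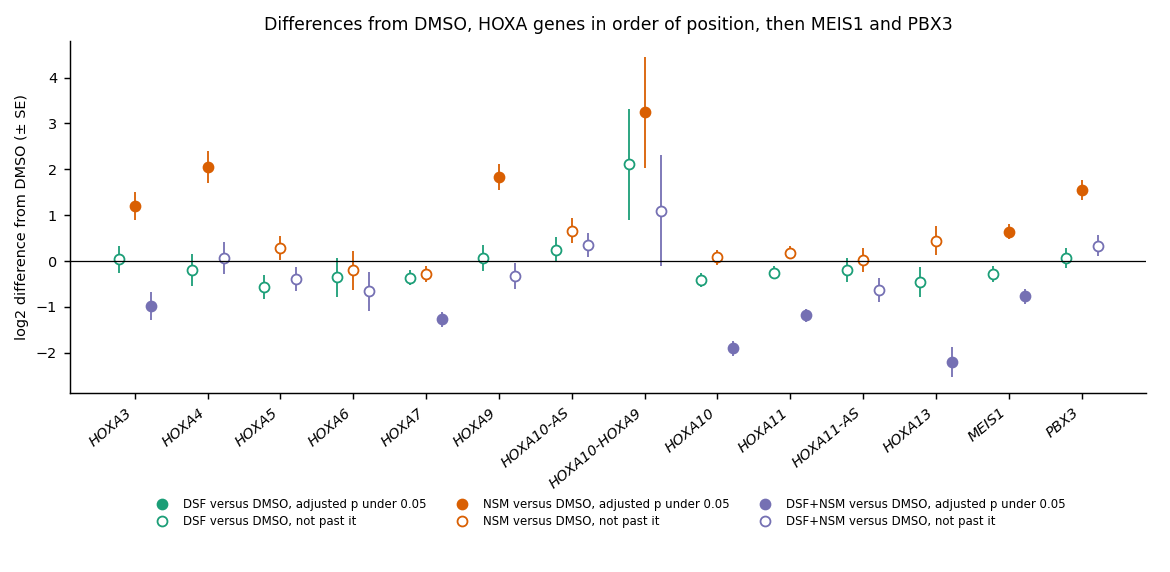
Log2 difference from DMSO (y axis, ± SE) of the 14 tested members, with the HOXA rows in the order of their positions on chromosome 7 followed by MEIS1 and PBX3 (x axis). Filled points have an adjusted p under 0.05. NSM points rise at HOXA3, HOXA4 and HOXA9, and the lowest DSF+NSM points are HOXA13 at -2.20 and HOXA10 at -1.90. With equal library sums the DSF+NSM values of HOXA4, HOXA10-AS and PBX3 change sign.

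The coding members lie on chromosome 7 from the start of HOXA3 at 27106184 to the end of HOXA13 at 27200091 (GRCh38, GENCODE 44), all on the minus strand and the antisense transcripts on the plus strand. The RefSeq promoter table (GRCh38.p14) held 20 windows for 13 of the 15 members. The 250 bases before the start are shown for 4 genes that differed in their response: HOXA9, which rose with NSM alone, HOXA10 and HOXA13, which had the largest falls with both drugs, and MEIS1. CpG sites, the dinucleotide that the CXXC domain of MLL binds when unmethylated, are in capitals, and each sequence is read 5′ to 3′ on the strand of its gene. The window of HOXA9 is chr7:27165538-27165787 (minus strand), of HOXA10 chr7:27174321-27174570 (minus strand), of HOXA13 chr7:27200092-27200341 (minus strand) and of MEIS1 chr2:66434875-66435124 (plus strand).
HOXA9: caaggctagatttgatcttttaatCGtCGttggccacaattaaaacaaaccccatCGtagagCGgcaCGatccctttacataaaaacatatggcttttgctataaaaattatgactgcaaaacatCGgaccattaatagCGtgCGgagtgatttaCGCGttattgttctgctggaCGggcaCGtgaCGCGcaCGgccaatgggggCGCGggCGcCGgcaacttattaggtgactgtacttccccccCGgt
HOXA10: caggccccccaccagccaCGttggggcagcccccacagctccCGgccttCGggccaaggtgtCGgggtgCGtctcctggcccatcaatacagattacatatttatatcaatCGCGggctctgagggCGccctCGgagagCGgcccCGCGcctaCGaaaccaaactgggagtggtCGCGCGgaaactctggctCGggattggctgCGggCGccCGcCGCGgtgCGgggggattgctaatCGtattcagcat
HOXA13: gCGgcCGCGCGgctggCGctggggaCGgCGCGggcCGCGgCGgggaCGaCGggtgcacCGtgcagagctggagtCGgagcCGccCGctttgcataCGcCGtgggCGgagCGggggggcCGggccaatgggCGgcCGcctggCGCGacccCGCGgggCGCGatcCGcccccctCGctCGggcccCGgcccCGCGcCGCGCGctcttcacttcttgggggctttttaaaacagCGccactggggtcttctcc
MEIS1: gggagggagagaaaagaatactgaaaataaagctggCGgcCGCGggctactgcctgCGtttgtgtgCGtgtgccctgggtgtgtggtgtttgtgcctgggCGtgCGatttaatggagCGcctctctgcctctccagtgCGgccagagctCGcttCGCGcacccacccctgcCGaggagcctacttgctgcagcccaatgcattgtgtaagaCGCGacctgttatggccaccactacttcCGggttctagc
The windows held 20 CpG sites in HOXA9, 24 in HOXA10, 40 in HOXA13 and 16 in MEIS1, beside a median of 11 over all 35116 windows of the table. The GC content was 48.8% in HOXA9, 65.2% in HOXA10, 78.0% in HOXA13 and 59.6% in MEIS1. All 4 windows shown held more CpG sites than that median, as did 12 of the 20 member windows. HOXA11, which fell with both drugs, had 11, the 7 windows of HOXA3 ranged from 0 to 26, and a second window of HOXA10 had 19. The MEIS motif TGACAG, searched on both strands, was in 3 of the 20 member windows and in 13.0% of all windows. The shared HOX and PBX motif TGATNNAT was in 1 of 20 and in 6.47% of all windows. Neither was in the 4 windows shown.

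Among the genes toward the 3′ end of the cluster, HOXA3, a regulator of pharyngeal arch development, moved both ways. It read 72.2, 89.2 and 57.6 in DMSO, 68.9, 74.1 and 78.9 in DSF, 183, 135 and 186 in NSM and 32.4, 24.2 and 59.4 in DSF+NSM libraries. NSM libraries lay above all others, and 2 of the 3 DSF+NSM libraries lay below all others while the highest passed the lowest DMSO library. The log2 difference was 1.20 ± 0.30 with NSM (limma adjusted p = 0.00524; 1.12 without NSM replicate 3) and -0.98 ± 0.30 with both drugs (limma adjusted p = 0.0148). The fall was lost without DMSO replicate 2 (limma adjusted p = 0.0667) or without DSF+NSM replicate 2 (limma adjusted p = 0.0702). HOXA3 shares 290 exon bases with HOXA-AS3 and 455 with HOXA-AS2 on the opposite strand, and the library kit does not mark strand, so their reads cannot be told apart there.

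HOXA4 had the largest rise with NSM among the coding HOXA genes. Its values were 32.7, 27.2 and 14.7 in DMSO, 26.6, 20.9 and 15.3 in DSF, 109, 71.7 and 133 in NSM and 21.0, 23.2 and 31.1 in DSF+NSM. Only the NSM group stood apart, and the other 3 groups overlapped. NSM raised it by 2.06 ± 0.35 on the log2 scale, or 4.16-fold (limma adjusted p = 0.000428; 1.86 without NSM replicate 3), and with both drugs it was 0.06 ± 0.35 (95% interval -0.69 to 0.82). The difference between DSF+NSM and NSM was -1.99 ± 0.35 (limma adjusted p = 0.00083), and -1.80 without NSM replicate 3.

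In the middle of the cluster, HOXA5, which is linked to myeloid differentiation, was not called in any comparison. It read 138 to 154 in DMSO, 85.6 to 114 in DSF, 175 to 186 in NSM and 68.8 to 161 in DSF+NSM libraries, so the DSF libraries lay below and the NSM libraries above DMSO, with a log2 difference of -0.56 ± 0.26 for DSF (limma adjusted p = 0.158) and 0.28 ± 0.26 for NSM (limma adjusted p = 0.395). HOXA6 ranged from 17.5 to 64.3 over all libraries, with overlap between every pair of groups, and was not called either.

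HOXA7, a known target of MLL fusion proteins, fell with both drugs. Its values were 229.8, 244 and 229 in DMSO, 179, 165 and 204 in DSF, 169.8, 189 and 224 in NSM and 99.8, 107 and 84.4 in DSF+NSM. Each single drug put all its libraries below DMSO without a call, and the DSF+NSM libraries lay below every other. The log2 difference with both drugs was -1.27 ± 0.17, which left 41.3% of the DMSO mean (limma adjusted p = 4.62e-05). It was -0.91 ± 0.17 against DSF (limma adjusted p = 0.000929) and -0.99 ± 0.17 against NSM (limma adjusted p = 0.000617). The combined difference minus the sum of the single ones was -0.63 ± 0.24 on the log2 scale, which was not called (limma adjusted p = 0.0667). It was called with equal library sums (-1.04, limma adjusted p = 0.00406), with library weights (limma adjusted p = 0.0437) and without NSM replicate 1 (limma adjusted p = 0.0471).

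HOXA9, the HOX gene most closely tied to leukemia with an MLL rearrangement, rose with NSM alone. It read 612, 659 and 629 in DMSO, 650.0, 717 and 622 in DSF, 1673, 1682 and 4039 in NSM and 469, 418 and 648 in DSF+NSM libraries. The NSM libraries lay above all others, and replicate 3 lay far above the rest of its group. The log2 difference with NSM was 1.83 ± 0.28, or 3.55-fold (limma adjusted p = 0.000231), and 1.40 without replicate 3. With both drugs it was -0.33 ± 0.28 with overlapping groups (95% interval -0.95 to 0.29; limma adjusted p = 0.35). Against NSM alone the difference of the combination was -2.16 ± 0.28 (limma adjusted p = 0.000113), and -1.74 without NSM replicate 3. The comparison of DSF+NSM with DMSO turned on the fit: HOXA9 was called lower without NSM replicate 3 (limma adjusted p = 0.0362) and with equal library sums (-1.11, limma adjusted p = 0.00487).

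HOXA10, the neighbour of HOXA9 on its 5′ side, fell with both drugs and was not called with NSM. It read 1017, 1019 and 962 in DMSO, 687, 759 and 807 in DSF, 1129.7, 981 and 1068 in NSM and 264, 215 and 335 in DSF+NSM libraries. DSF lay below DMSO, NSM overlapped it, and DSF+NSM lay far below all other libraries. The log2 difference with NSM was 0.08 ± 0.16 (95% interval -0.26 to 0.43; limma adjusted p = 0.691). With both drugs it was -1.90 ± 0.16, and 27.2% of the DMSO mean was left (limma adjusted p = 1.22e-06). It was -1.49 ± 0.16 against DSF (limma adjusted p = 1.97e-05) and -1.98 ± 0.16 against NSM (limma adjusted p = 2.47e-06). None of the alternatives run changed the call of the fall against DMSO.

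HOXA11, which patterns the forearm, and HOXA13, which patterns the hand and the urogenital tract, followed HOXA10. HOXA11 read 517, 559 and 540.1 in DMSO, 427, 425 and 506 in DSF, 665, 634 and 542 in NSM and 222, 227 and 264 in DSF+NSM. Its log2 difference with both drugs was -1.18 ± 0.14 (limma adjusted p = 2.24e-05), and the DSF+NSM libraries lay below every other library. HOXA13 read 298, 345 and 319.6 in DMSO, 249, 243 and 209 in DSF, 305, 356 and 769.7 in NSM and 61.3, 51.0 and 104 in DSF+NSM. Its log2 difference with both drugs was -2.20 ± 0.32, the largest fall of any member, and 22.5% of the DMSO mean was left (limma adjusted p = 0.000114). Neither gene was called with NSM alone, where the HOXA13 difference was 0.45 ± 0.32 with NSM replicate 3 and 0.04 without it.

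Across the 12 libraries the log2 values of HOXA10 correlated with those of HOXA11 at a Pearson's r of 0.9795, of HOXA13 at 0.944 and of HOXA7 at 0.901, and with those of HOXA9 at 0.578. Among 10782 other genes with a mean of at least 50, the patterns most like HOXA10 were those of PCYOX1L, COQ2, F2R, TAF5L and PIGC, with r from 0.977 to 0.9885. These values are a description over 12 libraries that share 4 treatments and 1 scaling.

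Within a library a ratio of 2 genes does not depend on the scaling between libraries. The ratio of HOXA10 to HOXA9 was 1.66, 1.55 and 1.53 in DMSO, 1.06, 1.06 and 1.30 in DSF, 0.675, 0.583 and 0.264 in NSM and 0.563, 0.513 and 0.517 in DSF+NSM libraries. It was above 1 in every DMSO and DSF library and below 1 in every library that received NSM. The difference of the log2 ratio from DMSO was -0.48 with DSF, -1.75 with NSM and -1.57 with both drugs, with no overlap with DMSO in any group. The exact two-sided permutation test gave p = 0.1 for each, the smallest p that 3 libraries against 3 allow. Both genes share exon bases with HOXA10-AS, and the read-through row carries both names, so the split of reads between them is uncertain in those parts.

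**Figure D3:**
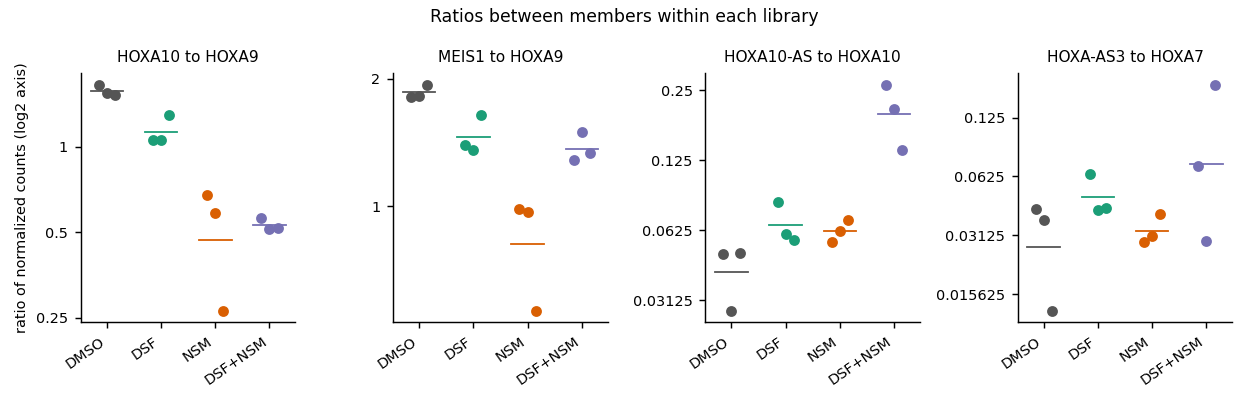
Ratios of normalized counts between members within each library (y axes, log2 scale) by group (x axes). Points are libraries and lines are geometric means. HOXA10 to HOXA9 lies above 1 in the DMSO and DSF libraries and below 1 in all NSM and DSF+NSM libraries, and HOXA10-AS to HOXA10 is highest in DSF+NSM.

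In DMSO the antisense transcripts had a lower level per kilobase than the coding genes they overlap. HOXA10-AS, a long noncoding RNA at chromosome 7, 27168619 to 27171915, read 50.4, 28.7 and 48.0 in DMSO, 56.7, 45.8 and 45.8 in DSF, 62.8, 61.0 and 74.2 in NSM and 70.0, 44.8 and 46.6 in DSF+NSM. The NSM libraries lay above DMSO, with a log2 difference of 0.66 ± 0.26 that was not called (limma adjusted p = 0.0538) but was called in 7 of 23 alternatives, the replicate block among them (limma adjusted p = 0.0395), and DSF+NSM overlapped DMSO at 0.35 ± 0.26 (limma adjusted p = 0.286). The ratio of HOXA10-AS to HOXA10 was 0.0495, 0.0282 and 0.0499 in DMSO and 0.265, 0.209 and 0.139 in DSF+NSM, a 4.80-fold difference of the geometric means. It was also above DMSO in every DSF and NSM library, by 0.67 and 0.60 on the log2 scale, and the exact permutation p was 0.1 in each group, again the smallest possible. HOXA10-AS shares 608 of its 1654 exon bases with HOXA10 and 422 with HOXA9. Reads of a strand-blind library in those bases cannot be assigned, so the ratio may hold reads of both genes.

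HOXA-AS3 sat at the limit of what these libraries resolve. Its normalized counts ran from 2.95 to 15.6. The most steps in any library were 12, in DMSO replicate 2, about as many reads. The ratio to HOXA7, with which it shares 1507 exon bases, overlapped DMSO in every treated group, and the exact permutation p was 0.2 with DSF, 0.9 with NSM and 0.3 with both drugs. A difference in HOXA-AS3 was not detectable at this depth. HOXA11-AS, which shares 726 exon bases with HOXA11, read 98.1 to 127 in DMSO and 48.8 to 88.0 in DSF+NSM. Its DSF+NSM libraries lay below DMSO at a log2 difference of -0.63 ± 0.27, which was not called (limma adjusted p = 0.0646), but it was called under 6 of the alternatives run, equal sums among them (-1.40, limma adjusted p = 0.000389).

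The row HOXA10-HOXA9, a transcript that runs from HOXA10 into HOXA9, was listed at 0 in 2 of the 3 DMSO libraries and at 4.90 in the other. It stood at 17.7, 18.4 and 12.8 in NSM, and at 35.9, 11.9 and 0 in DSF, where 35.9 was the highest value of any library. The DSF mean of 15.9 was close to the NSM mean of 16.3, and the DSF+NSM mean was 4.39. Whether the rise was particular to NSM cannot be told, since the DSF libraries spread from 0 to 35.9 and overlapped DMSO. The NSM difference was called (limma adjusted p = 0.0415), and the DSF difference of 2.11 ± 1.21 was not (limma adjusted p = 0.252). The size of the NSM difference depends on the pseudocount, and its call was lost in 6 of the alternatives run. GENCODE lists no such symbol. An entry without a symbol, taken to be this transcript, shares 368 exon bases with HOXA10 and 397 with HOXA9 on the same strand. Reads in those bases cannot be told apart, and the change of the row is uncertain.

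MEIS1, the cofactor that speeds leukemia driven by HOXA9, rose with NSM and fell with both drugs. It read 1111, 1197 and 1219 in DMSO, 906, 972 and 1021 in DSF, 1649.7, 1626 and 2288 in NSM and 602, 625 and 866 in DSF+NSM libraries. No 2 groups overlapped, in the order DSF+NSM, DSF, DMSO and NSM from the lowest. The log2 difference with NSM was 0.64 ± 0.17 (limma adjusted p = 0.00734; 0.48 without NSM replicate 3), and it was not called with equal library sums (0.37, limma adjusted p = 0.114). With both drugs it was -0.77 ± 0.17, or 59.3% of the DMSO mean (limma adjusted p = 0.00202). Against DSF alone the difference of -0.49 ± 0.17 was called (limma adjusted p = 0.0328) but was lost with median-of-ratios scaling (limma adjusted p = 0.0509) and when any 1 DSF library, or DSF+NSM replicate 1 or 2, was left out.

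The ratio of MEIS1 to HOXA9 was 1.81, 1.82 and 1.94 in DMSO, 1.39, 1.36 and 1.64 in DSF, 0.986, 0.967 and 0.567 in NSM and 1.28, 1.49 and 1.34 in DSF+NSM. Every treated library lay below DMSO, at a log2 difference of -0.35 with DSF, -1.19 with NSM and -0.44 with both drugs (exact permutation p = 0.1 each, the smallest possible). The patterns most like MEIS1 among the same 10782 genes were those of MAT2B, SPOP, ANKRD55, USP24 and LRRC8D, with r from 0.9725 to 0.979. Among the members, r with MEIS1 was 0.939 for HOXA3, 0.916 for HOXA13 and 0.905 for HOXA9. MEIS1-AS3, the antisense transcript at the 5′ end of MEIS1 and chosen here after its values were seen, read 42.4, 49.1 and 49.0 in DMSO and 12.3, 13.9 and 22.2 in DSF+NSM, at a log2 difference of -1.52 ± 0.34 (limma adjusted p = 0.0022).

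PBX3, the PBX protein most often paired with HOXA9 in leukemia, rose with NSM and was not called with both drugs. It read 1701, 1742 and 1827 in DMSO, 1841, 1908 and 1788 in DSF, 4333, 3945 and 8037 in NSM and 2039, 1969 and 2727 in DSF+NSM. NSM libraries lay above all others and DSF+NSM libraries just above DMSO. For NSM the log2 difference was 1.55 ± 0.22, or 2.94-fold (limma adjusted p = 0.000121; 1.23 without NSM replicate 3), and with both drugs 0.34 ± 0.22 (95% interval -0.14 to 0.82; limma adjusted p = 0.22). The small difference with both drugs was called higher without NSM replicate 3 (limma adjusted p = 0.0116), with library weights (limma adjusted p = 0.0145) and with only the groups compared (limma adjusted p = 0.0379), and it changed sign to -0.45, without a call, with equal library sums.

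The combination was also compared with each drug alone. Against DSF, 6 of 14 members were lower with both drugs, namely HOXA3, HOXA7, HOXA10, HOXA11, HOXA13 and MEIS1, and none was higher, against 21.4% of all genes called lower and 21.7% called higher, or 43.1% in either direction. With equal library sums 8 were lower, against 53.8% of all genes lower. Against NSM, 9 were lower and none was higher, against 38.6% of all genes called, 18.3% lower and 20.3% higher. With equal library sums 12 were lower, against 44.9% of all genes lower, and without NSM replicate 3 also 12, against 24.4%. The 9 were HOXA3, HOXA4, HOXA7, HOXA9, HOXA10, HOXA11, HOXA13, MEIS1 and PBX3, with log2 differences from -0.99 for HOXA7 to -2.65 for HOXA13. The median of the members against NSM was -1.39, beside 0.03 over all genes.

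The interaction asks whether both drugs together gave the sum of their separate log2 differences. It was called for 8 of 14 members, all 8 below the sum, against 26.1% of all genes called, 14.0% below the sum and 12.1% above it. With equal library sums 9 lay below, against 28.6% of all genes, and without NSM replicate 3 there were 8, against 24.3%. HOXA9 would stand 1.89 above DMSO by the sum and was 0.33 below it, a gap of -2.22 ± 0.40 (limma adjusted p = 0.00184; -1.80 without NSM replicate 3). HOXA13 would stand at -0.01 and was at -2.20, a gap of -2.19 ± 0.46 (limma adjusted p = 0.00413; -1.78 without NSM replicate 3). HOXA10 would stand at -0.33 and was at -1.90, a gap of -1.57 ± 0.22 (limma adjusted p = 0.00044). These are different shapes of departure: for HOXA4, HOXA9 and PBX3 the rise called with NSM alone was not called when DSF was present (though for PBX3 it was without NSM replicate 3, at 0.27), whereas HOXA10, HOXA11 and HOXA13 showed no called change with either drug and a fall with both. The call of HOXA4 was lost without DSF replicate 1 (limma adjusted p = 0.0508).

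**Figure D4:**
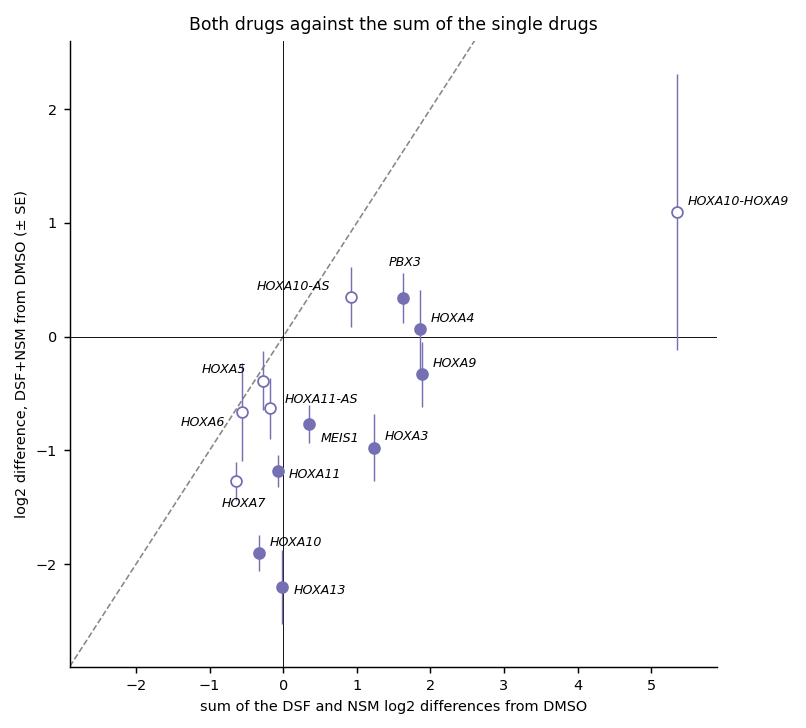
Log2 difference of DSF+NSM from DMSO (y axis, ± SE) against the sum of the DSF and NSM differences (x axis) for the 14 tested members. On the dashed line both are equal, and filled points have an interaction with an adjusted p under 0.05. HOXA9 (1.89 against -0.33) and HOXA13 (-0.01 against -2.20) lie far below it.

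The genes that flank the cluster did not share one direction. Of 12 tested, 2 fell and 4 rose with both drugs, and their median was -0.16, beside 0.03 over all genes. With equal library sums 7 fell and 3 rose. Of all genes 24.5% were called lower and 28.3% higher with both drugs, or 56.3% and 11.3% with equal sums. HOTTIP, the noncoding RNA next to HOXA13, went from a mean of 136 in DMSO to 30.8 in NSM and 38.6 in DSF+NSM, at -2.12 (limma adjusted p = 0.00202) and -2.08 (limma adjusted p = 0.00199). HOTAIRM1, a noncoding RNA at the 3′ end of the cluster, rose from 37.5 to 64.1 with NSM and 102 with both drugs (0.79 and 1.42; limma adjusted p = 0.0314 and 0.000977). Farther out on that side, NFE2L3 fell with both drugs (-0.99), and HNRNPA2B1, CBX3, SNX10 and SKAP2 were not called there, with log2 differences from -0.61 to -0.10, but all 4 were called lower with equal sums. On the HOXA13 side TAX1BP1 rose by 1.69, JAZF1 by 0.97 and CREB5 by 2.16, while EVX1 (1.57) and HIBADH (-0.21) were not called. With equal sums the rise of JAZF1 was lost (0.19) and HIBADH was called lower (-0.99). HOXA13 and HOTTIP share 86 exon bases on opposite strands.

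Other HOX clusters were measured less often. Of 8 HOXB genes tested, none fell and 4 rose with NSM, and 3 fell and 2 rose with both drugs, or 4 and 0 with equal sums. Of all genes 23.7% were called lower and 25.4% higher with NSM. With both drugs the shares were 24.5% and 28.3%, or 56.3% and 11.3% with equal sums. The log2 difference with both drugs was -0.97 for HOXB4, -0.55 for HOXB6 and -0.40 for HOXB7, whereas HOXB9 rose by 0.77, which became -0.01 with equal sums. None of 5 HOXC genes was called against DMSO in the 3 comparisons, but 4 of them were called lower with both drugs under equal sums, from -0.64 for HOXC6 to -2.24 for HOXC9. In the HOXD cluster HOXD13, the single HOXD gene listed, fell with both drugs (-2.69) from a DMSO mean of 17.6.

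Of 10 TALE genes tested, MEIS1 and PBX3 included, 4 fell and 3 rose with both drugs, or 7 and 2 with equal sums, where PKNOX1 turned from a called 0.40 to a called -0.38. The shares of all genes called lower and higher were 24.5% and 28.3%, or 56.3% and 11.3% with equal sums. TGIF1, a TALE repressor, rose from 229 in DMSO to 1039 in DSF+NSM (2.17; limma adjusted p = 4.89e-07), and IRX3 (-1.59), TGIF2 (-1.13) and MEIS2 (-0.90) fell. PBX2, named after its values were seen, had means of 1888 in DMSO, 4832 in NSM and 2166 in DSF+NSM, highest with NSM as PBX3 was.

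Genes known as targets of HOXA9 and MEIS1 went both ways with both drugs: of 14 tested, 5 fell and 5 rose, or 7 and 4 with equal sums. CCL3, a chemokine, rose from 44.3 to 6103 (7.10), ID2, an inhibitor of helix-loop-helix factors, rose by 1.81 and the kinase PIM1 by 1.69, while the kinase SYK fell by 1.42 (limma adjusted p = 2.47e-06). MYB, a transcription factor of blood progenitors named after its values were seen, fell by 0.97. Of 16 writers and readers of chromatin at HOXA genes, 3 fell and 4 rose with both drugs, but with equal sums 11 fell and KDM6B alone rose. Beside both lists, 24.5% of all genes were called lower and 28.3% higher with both drugs, or 56.3% and 11.3% with equal sums. MEN1, the gene of menin, which tethers MLL to HOXA promoters, fell from 1068 to 379.9 (-1.49; limma adjusted p = 4.3e-06) and EED, a subunit of Polycomb complex PRC2, fell by 0.93. MLLT1, a YEATS-domain reader of acylated histones, fell by 0.85. KDM6B, which removes the Polycomb mark, rose by 2.16.

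**Figure D5:**
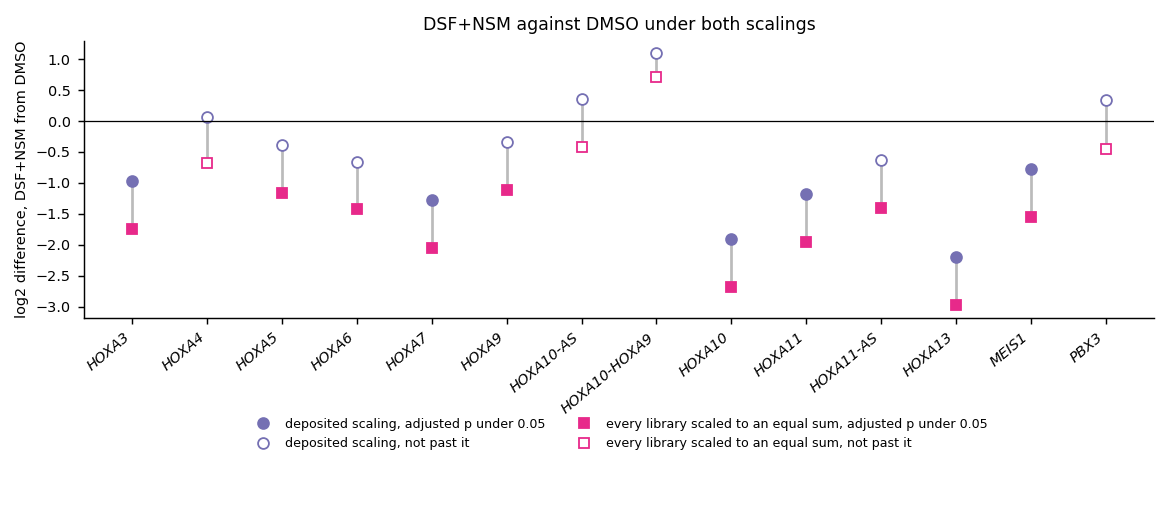
Log2 difference of DSF+NSM from DMSO (y axis) for the 14 tested members (x axis) with the deposited scaling (circles) and with every library scaled to the same sum (squares), where filled symbols have an adjusted p under 0.05. Every member moves down with equal sums, most of them by a similar amount, so HOXA10 and HOXA13 stay the lowest. HOXA4, HOXA10-AS and PBX3 change sign without a call.

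The scaling decides how many members fell with both drugs, from 6 with the deposited values to 10 with equal sums, as the comparison of both scalings shows. The 6 called with the deposited values were called lower under both, and HOXA5, HOXA6, HOXA9 and HOXA11-AS were added. The order of the members, with HOXA13 and HOXA10 at the bottom, was common to both.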

How the data were processed

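RNA from 12 SHI-1 libraries was measured, 3 for each of 4 groups, which were taken from the sample labels. Per the study's methods, the authors selected poly(A) RNA, sequenced TruSeq version 2 libraries as read pairs, and used trimmomatic, STAR and Salmon with DESeq2. That kit is known not to mark strand. The submitters' processing notes instead name bcl2fastq 2.19, Trimmomatic, Bowtie2, Picard and featureCounts with DESeq2, on hg38. Which of both made the tables was not settled. The deposited signal is the normalized count of each gene, meaning reads scaled between libraries, though not always whole reads times 1 factor. The file headers name 24 libraries, of which 12 are used here. Whole multiples of the smallest step (tolerance 0.01 steps) made up only 29.0% to 32.3% of the nonzero values in a library, so whole reads could not be rebuilt and count models were not used. Values near the step are imprecise.

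Values were transformed as log2(value + 1), a gene was kept when 3 or more libraries reached 10, and group means of all 12 libraries were fitted with limma 3.58.1 in R 4.3.3 (trend, robust, Benjamini-Hochberg adjustment over 13502 genes, threshold 0.05), a step checked on simulated data. The 3 treatments were set against DMSO, the combination against either drug, and the interaction was tested. Ratios within libraries were compared with exact two-sided permutation tests in Python 3.11.15 with scipy 1.17.1. Positions came from GENCODE 44 by symbol, which lists no symbol HOXA10-HOXA9, and promoter windows from RefSeq. No 2 replicates held an equal nonzero value for any gene, and p-values measure the spread between the independent experiments. The members, the 9 context lists and the tests were chosen with earlier results of these data known. A HOXA row that met the rule and a gene of a context list are not reported here. Named genes are the members; of each list, up to 4 with the largest called difference with both drugs and a mean of at least 50; flanking genes whose mean reached 5; and the 5 patterns most like HOXA10 and MEIS1. CD33, HOXC6, HOXC9, HOXD13 and PKNOX1 lie outside this rule and were named after their values were seen. The alternatives were scaling by median of ratios, a trimmed mean or equal sums, other filters, pseudocounts of 0.1 and 10, library weights, a replicate block, fits of only the groups compared, and leaving out each library.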

Additional observations from a re-analysis of the deposited data

Results flagged for a closer look

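For 8 members NSM had a different effect in the presence of DSF than in its absence, by the interaction term of the limma fit. All values are log2 differences, and the difference is the effect of NSM with DSF minus that without it. NSM changed HOXA9 by 1.83 without DSF and by -0.40 with it, a difference of -2.22. For HOXA3 the effects were 1.20 and -1.02, a difference of -2.21. For HOXA13 they were 0.45 and -1.74, a difference of -2.19. For HOXA4 they were 2.06 and 0.26, a difference of -1.79. HOXA10 had 0.08 and -1.49, a difference of -1.57. PBX3 had 1.55 and 0.27, a difference of -1.29. MEIS1 had 0.64 and -0.49, a difference of -1.13. HOXA11 had 0.18 and -0.92, a difference of -1.11.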

How the results depend on the processing

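Over 84 member results and 1909 alternatives, 1784 kept their direction and side of the threshold, 38 uncalled values changed sign without a call, 19 lost the call, 68 gained one and 0 reversed a called direction. With equal library sums 10 members were called with both drugs, all lower, against 67.5% of all genes called and 56.3% lower. With library weights 9 were called for DSF, 7 lower and 2 higher, and 10 for both drugs, 8 lower and 2 higher. HOXA10-AS and PBX3 were the members called higher with both drugs in that fit, for which shares over all genes were not counted. With only the groups compared 6 were called for DSF, all lower, against 56.0% of all genes called and 25.9% lower. Leaving out 1 library gave 0 to 2 members for DSF, 5 to 7 for NSM, 5 to 9 for both drugs, 4 to 8 against DSF, 9 to 12 against NSM and 7 to 9 for the interaction. Among these fits, shares over all genes were counted only without NSM replicate 3. There 41.2% of all genes were called for DSF, against 17.8% with all libraries. The DSF count was above 0 without DSF replicate 3 (1), NSM replicate 3 (1) or DSF+NSM replicate 3 (2), and the cause was not tested.

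Leaving out 1 library moved the log2 ratio of HOXA10-AS to HOXA10 between 0.40 and 0.81 for DSF, 0.32 and 0.73 for NSM and 1.99 and 2.51 for both drugs. For HOXA-AS3 to HOXA7 it lay between 0.30 and 1.16, -0.27 and 0.59, and 0.73 and 2.06. For HOXA10 to HOXA9 it lay between -0.58 and -0.43, -2.01 and -1.33, and -1.61 and -1.53, and for MEIS1 to HOXA9 between -0.43 and -0.29, -1.33 and -0.93, and -0.50 and -0.39.

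Whether the replicate numbers pair the libraries was not settled. Deviations of same-numbered libraries correlated at -0.0644 to 0.278, with 2 of 18 pairs over 0.1, and those of other pairs at -0.233 to 0.239. Of the 12 libraries, 6 correlated best with their own number. With a replicate block 0 members were called for DSF, 7 for NSM, 7 for both drugs, 6 against DSF, 10 against NSM and 8 for the interaction. Shares over all genes were not counted for that fit, so these counts have no background beside them. Of the 1233 results of the context lists, 150 counts moved by over 1.5 times.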
